A study of Mus musculus with 10 samples.

Results

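The genes described here make, sense, move and store sterols. They comprise 31 of the 17737 genes in the count table: 18 enzymes of the pathway from acetoacetyl-CoA to cholesterol, 5 regulators of the SREBP transcription factors, 7 genes of sterol transport, efflux and storage with the LXR receptors that control them, and the oxysterol enzyme gene Ch25h. The list was chosen by function with the differences between these tumors already known, so the D69A against WT values of its members are a description and support nothing further. All 31 had enough counts to be fitted. The tumors grew from the mouse melanoma line B16-F10, placed under the skin of the right flank of C57BL/6 mice and taken at day 11. Cells of 5 tumors (WT, numbered 2 to 6) overexpressed wild-type IL-18, and cells of the other 5 (D69A, numbered 1 to 5) overexpressed IL-18 in which aspartate was replaced by alanine. Both groups thus carry an IL-18 transgene, and no tumor without one was analysed here. Neither the promoter of the transgene, nor whether a line was 1 clone or a pool, nor the age and sex of the mice is given in the sources used here.

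Cholesterol is built in the endoplasmic reticulum by a chain of enzymes whose genes are switched on together by SREBP-2 and, in part, SREBP-1. SCAP carries the SREBP precursors to the Golgi for cleavage, and the INSIG proteins hold SCAP back when sterols or 25-hydroxycholesterol are plentiful, so the pathway is under negative feedback. Excess sterol is sensed by the LXR receptors, which induce the exporters ABCA1 and ABCG1 and the ubiquitin ligase MYLIP, or is esterified by SOAT1. Tumor cells draw on this pathway for membranes, and macrophages are known for high sterol efflux.

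Total counts ran from 25904345 to 37578722 per tumor, and 3 counts, taken as a floor, equal 0.0798 to 0.116 CPM without scaling factors. CPM are counts relative to library size, and all other CPM include the TMM factors that adjust for composition between tumors. Pigment cell markers were present in every tumor, with a summed level of 22339 to 27416 CPM over 15 genes in WT and 31665 to 39278 CPM in D69A tumors. All 10 leukocyte markers and 11 of 12 macrophage markers were lower in D69A tumors, and none was at 0 in any tumor. Leukocyte markers summed to 633 to 1673 CPM in WT and 237 to 472 CPM in D69A tumors, and macrophage markers to 856 to 2244 CPM against 548 to 826 CPM. Fibroblast markers were lower in 9 of 10 cases, endothelial markers in 8 of 8 and adipocyte markers in 4 of 4 tested. Of all genes tested 24.7% were lower, which is the background for each of these marker counts. In whole tumors, fewer cells of a type and less RNA per cell cannot be told apart. Whether any 2 tumors shared a mouse is not stated in the labels, and the p-values reflect only how far these samples spread, which may be technical.

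Most sterol synthesis genes were higher in D69A tumors, although Mvk, Pmvk, Tm7sf2 and Ebp had negative values when scaled to pigment cell markers, while the exporter genes Abca1 and Abcg1, the LXR gene Nr1h3 and Ch25h were lower under both scalings. Of the 31 members 21 were higher and 4 lower by edgeR's quasi-likelihood test, with p-values adjusted over 13798 genes and a threshold of 0.05. Among all genes tested 18.8% were higher, 24.7% lower and 43.5% either way, and nothing is read from the difference because the list was chosen on this contrast. The median log2 fold change of the members was 0.65, against 0.0024 over all genes tested. With library sizes scaled instead to the summed counts of the pigment cell markers, 7 members were higher and 9 lower, against 151 higher and 10690 lower over all genes. That scaling moved the median of all genes to -0.47 and that of the members to 0.18.

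**Figure D1:**
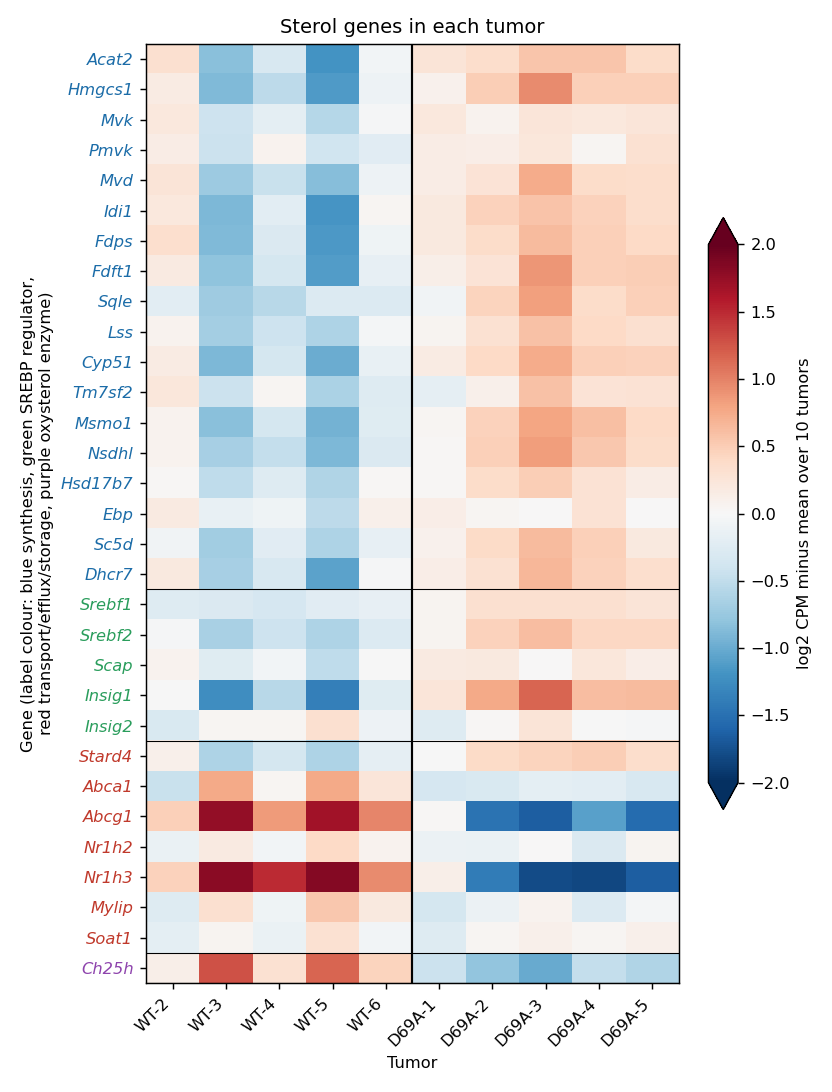
Each row is a gene and each column a tumor, and the colour is log2 CPM minus the gene's mean over the 10 tumors, with red above and blue below it. Synthesis enzymes (top block) are bluest in WT tumors 3 and 5 and reddest in D69A tumor 3, and the rows of Abcg1, Nr1h3 and Ch25h show the opposite colours.

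All 8 enzyme genes up to squalene were higher in D69A tumors, against 18.8% of all genes tested. Hmgcs1 alone among these 8 was called when scaled to pigment cell markers. With that scaling Mvk and Pmvk had negative values, and Acat2, Mvd, Idi1, Fdps and Fdft1 lay between 0.24 and 0.39 on the log2 scale. Hmgcs1 (chromosome 13, 119690379 to 119708260 in mm10) encodes the synthase that joins acetoacetyl-CoA and acetyl-CoA. Hmgcs1 stood at 171, 83.2, 107, 69.9 and 142 CPM in WT tumors 2 to 6 and 163, 215, 295, 212 and 214 CPM in D69A tumors 1 to 5. Tumors of the groups overlapped, since WT tumor 2 lay above D69A tumor 1, and the other 4 D69A tumors lay above every WT tumor (log2 change 0.94 with SE 0.24, edgeR adjusted p = 0.00898). Acat2, which encodes the cytosolic thiolase that supplies acetoacetyl-CoA, stood at 109, 49.0, 69.8, 38.2 and 84.0 CPM in WT tumors 2 to 6 and 104, 111, 127, 128 and 112 CPM in D69A tumors 1 to 5. Its WT tumors spread 2.86-fold from lowest to highest, the widest range among the 18 enzymes, and its D69A tumors only 1.23-fold. Idi1, the isomerase that makes dimethylallyl diphosphate, was 1.65-fold higher, and Fdps, which joins the units to farnesyl diphosphate, 1.67-fold higher. Mvd, the decarboxylase of the mevalonate branch, was 1.63-fold higher. Fdft1, whose product squalene synthase commits farnesyl diphosphate to sterols, had 40.7 ± 13.9 CPM over the WT tumors against 73.4 ± 15.1 CPM over the D69A tumors (SD, n = 5 per group), a log2 change 0.85 with SE 0.23. Changes were smaller for both kinases, Mvk at 1.29-fold and Pmvk at 1.25-fold. Of the exon sequence of Fdps 26.7% is shared with the annotated Gm43738, and 18.3% of that of Fdft1 lies opposite exons of Ctsb, so reads can be split or mixed there.

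Not every call in this branch held when 1 tumor was left out. Acat2 lost its call without WT tumor 3 (edgeR adjusted p = 0.0599), D69A tumor 3 (0.0508) or D69A tumor 4 (0.0556), Idi1 without WT tumor 3 (0.0597) or D69A tumor 2, 3 or 4 (0.0557, 0.054 and 0.0532), and Fdps without WT tumor 3 (0.0594) or D69A tumor 3, 4 or 5 (0.0563, 0.0525 and 0.0502). For Mvk the call was lost in 8 of 10 such fits, without WT tumor 3, 4 or 5 (0.0831, 0.0664 and 0.0576) or any D69A tumor (0.0507 to 0.0787), and for Pmvk also in 8, without WT tumor 3, 5 or 6 (0.0958, 0.0804 and 0.0904) or any D69A tumor (0.0502 to 0.109). With the 3 tumors richest in muscle markers omitted, all of Acat2, Mvk, Pmvk, Mvd, Idi1, Fdps and Fdft1 lost the call (edgeR adjusted p = 0.0547 for Fdft1, 0.0893 for Mvd and 0.111 to 0.225 for the others), with log2 fold changes of 0.82 for Fdft1 and 0.61 for Mvd.

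From squalene to cholesterol 8 of 10 enzyme genes were higher, against 18.8% of all genes tested. The others, Ebp and Tm7sf2, were not called and had negative values when scaled to pigment cell markers. Sqle encodes squalene epoxidase, the oxygen-dependent entry to the sterol ring, and had the highest mean level per transcript length of the members in WT tumors (56.9 CPM per kb of exon) and the second highest, after Insig1, in D69A tumors (101 CPM per kb). Sqle stood at 358, 253, 282, 343 and 342 CPM in WT tumors 2 to 6 and 394, 566, 737, 535 and 579 CPM in D69A tumors 1 to 5. All D69A tumors lay above all WT tumors (log2 change 0.83 with SE 0.15). Cyp51, the lanosterol demethylase gene, stood at 148, 71.0, 104, 67.0 and 119 CPM in WT tumors 2 to 6 and 149, 175, 222, 184 and 182 CPM in D69A tumors 1 to 5, again with no overlap, although WT tumor 2 and D69A tumor 1 were nearly level (log2 change 0.84 with SE 0.21). Sc5d, the desaturase of a late step, was the remaining enzyme gene without overlap (1.62-fold higher). Over all genes tested, 12% had every D69A tumor above every WT tumor, and among the 31 members 6 did.

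Of the other enzymes after squalene, Lss, which closes the ring to lanosterol, was 1.57-fold higher. Both demethylation genes Msmo1 (1.85-fold) and Nsdhl (1.85-fold) and the keto reductase gene Hsd17b7 (1.43-fold) rose as well, as did Dhcr7, the reductase that makes cholesterol from its 7-dehydro precursor (1.62-fold). In each of these 5 genes, 4 of 5 D69A tumors lay above every WT tumor, and D69A tumor 1 did not. The exceptions were Ebp, the sterol isomerase gene, with 54.9 ± 9.77 CPM over the WT tumors against 61.8 ± 5.32 CPM over the D69A tumors (SD, n = 5 per group), and Tm7sf2, a sterol reductase gene of low level, with 8.06 ± 1.94 CPM over the WT tumors against 10.7 ± 2.05 CPM over the D69A tumors (SD, n = 5 per group). Neither passed the threshold over all 10 tumors (edgeR adjusted p = 0.258 and 0.0949), and intervals of 95% for the log2 fold change ran over -0.10 to 0.44 for Ebp and -0.016 to 0.84 for Tm7sf2. Tm7sf2 passed without WT tumor 2 (edgeR adjusted p = 0.0323) or D69A tumor 1 (0.0389), and 12.1% of its exon sequence is shared with Vps51.

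**Figure D2:**
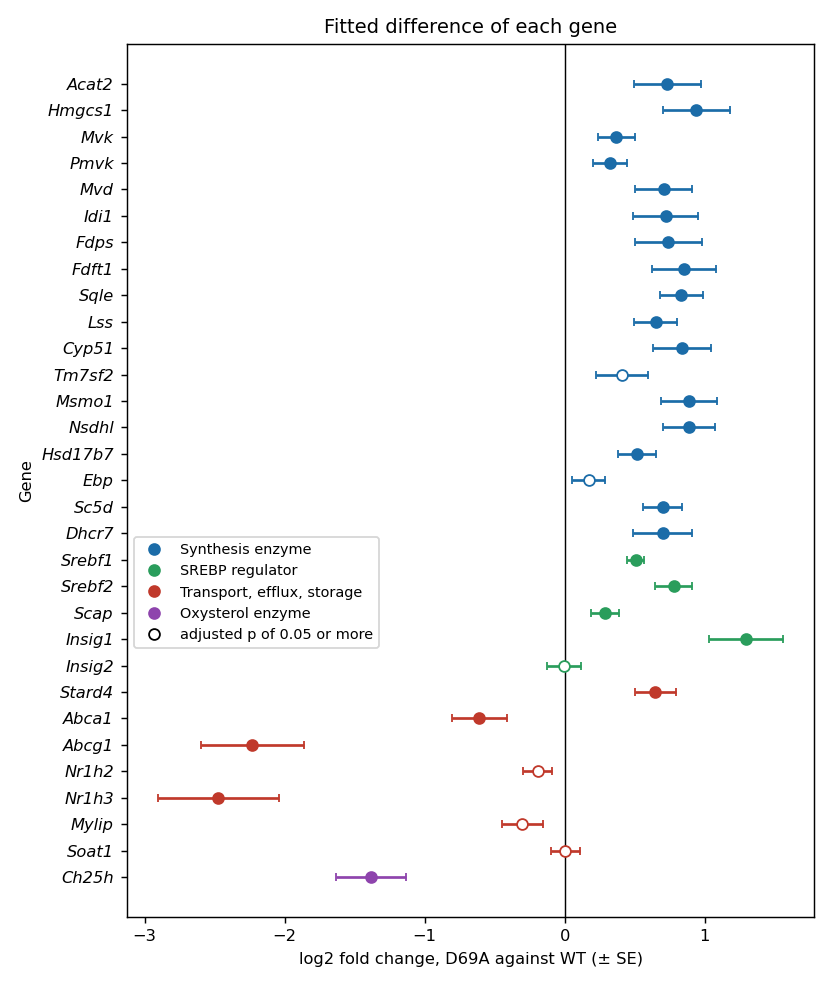
Points are fitted log2 fold changes of D69A against WT tumors with TMM scaling, bars are ± SE, and open points did not pass an adjusted p of 0.05 (5 tumors per group). The 18 synthesis enzymes lie between 0.17 and 0.94, Insig1 at 1.29 and Nr1h3 at -2.47. With scaling to pigment cell markers Mvk, Pmvk, Tm7sf2, Ebp, Scap and Soat1 lie below 0.

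In all, 16 of the 18 enzyme genes rose and none fell, with a median log2 fold change of 0.71. Of all genes tested 18.8% were higher and 24.7% lower. When scaled to pigment cell markers, 5 enzyme genes (Hmgcs1, Sqle, Cyp51, Msmo1 and Nsdhl) were higher and 1 (Ebp) lower, with a median of 0.26. Over all genes that scaling gave 151 higher and 10690 lower, with a median of -0.47. With the 3 muscle-rich tumors omitted (WT tumors 3 and 4 and D69A tumor 1, the highest in skeletal muscle markers) 8 of the 16 kept their call, while the median log2 fold change of the 18 enzymes was 0.65 with these 7 tumors against 0.71 with all 10.

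Within a group the enzymes mostly ranked the tumors alike, an order that is not part of the contrast between groups. WT tumor 2 was the highest WT tumor for 17 of 18 enzymes and WT tumor 6 for Hsd17b7. WT tumor 5 was lowest for 14 and WT tumor 3 for the other 4. The spread from lowest to highest WT tumor ranged from 1.42-fold (Sqle) to 2.86-fold (Acat2) with a median of 1.99-fold, and in D69A tumors from 1.13-fold to 1.87-fold with a median of 1.45-fold. D69A tumor 1 was the lowest D69A tumor for 15 enzymes and D69A tumor 3 the highest for 14. Sqle departed from this order, since WT tumor 5, the lowest for most enzymes, was second highest of the WT tumors for Sqle at 343 CPM, close to WT tumors 2 (358) and 6 (342).

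Levels of the enzymes ran opposite to leukocyte marker levels within the WT group. The mean log2(CPM + 0.5) of the 18 enzymes was 6.13, 5.88, 5.70, 5.33 and 5.18 in WT tumors 2, 6, 4, 3 and 5. Leukocyte markers had means of 5.67, 6.11, 6.31, 6.99 and 7.03 in the same order, so the WT tumors ranked exactly in reverse, and pigment cell markers stood at 9.44, 9.29, 9.32, 9.20 and 9.01. D69A tumor 1, with the lowest enzyme mean of its group (6.09), had the highest leukocyte mean (5.19), and WT tumor 2 reached a higher enzyme mean than D69A tumor 1. The enzyme mean minus the pigment cell mean was -3.61 ± 0.25 in WT and -3.44 ± 0.07 in D69A tumors (SD, n = 5 each), and the ranges of -3.87 to -3.31 and -3.52 to -3.34 overlapped. Groups of 5 are too small for a correlation across tumors, and the part of cell content in the enzyme levels was not tested.

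**Figure D3:**
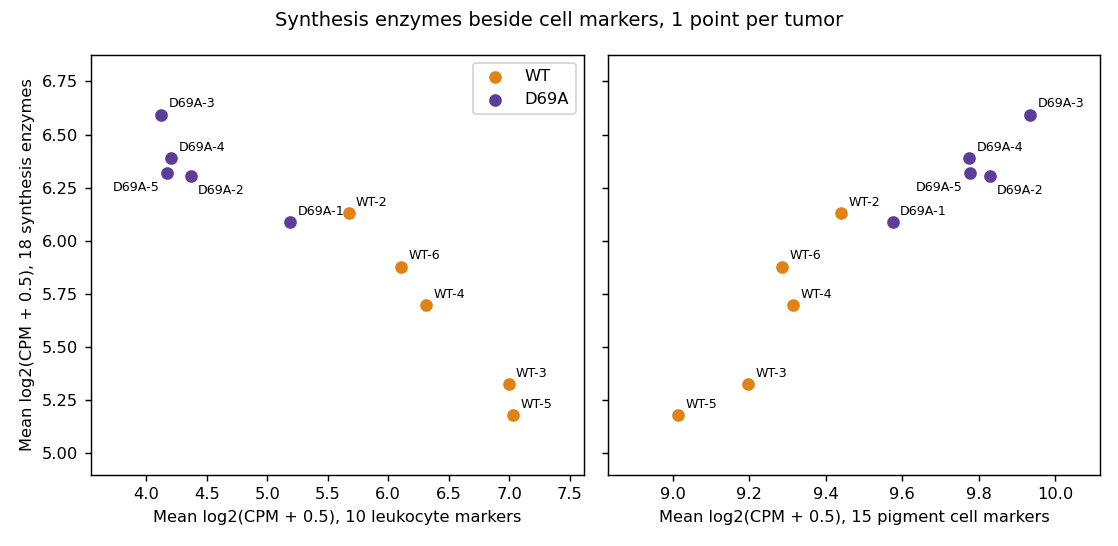
Each point is a tumor. The vertical axis is the mean log2(CPM + 0.5) of the 18 synthesis enzymes, and the horizontal axes are the same mean over 10 leukocyte markers (left) and 15 pigment cell markers (right). WT tumors run from 5.18 with a leukocyte mean of 7.03 (tumor 5) to 6.13 with 5.67 (tumor 2), and the 5 D69A tumors lie at leukocyte means of 5.19 and below.

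Promoter sequences of the enzymes shared the letters of the CCAAT box, which the factor NF-Y binds and which SREBPs are known to work beside. RefSeq windows (build GRCm38.p6, 250 bases before to 50 after a gene's start) matched 26 of the 31 members, 15 of them enzymes. On either strand CCAAT occurred in 14 of these 15 enzyme genes, against 41.1% of genes with a window and 43% of those tested here. The GC box GGGCGG, known for binding Sp1, occurred in 14 of 15 as well, against 38.2% and 66.6%. A strict sterol element, TCACNCCAC, was found in Hmgcs1 alone among the members (1.44% of all genes with a window). A looser form that contains it, TCACNNCA, was added after that count was seen and occurred in 8 of 15 enzyme genes (15.7% of all, 13.7% of those tested). Of the 5 transport, efflux and storage genes with a window 2 held CCAAT and none the looser sterol letters. Of the 5 regulators 4 held CCAAT and 2 the looser sterol letters, Srebf2 and Insig2, and Insig2 did not rise (log2 fold change -0.0043). Among 32 further genes of sterol biology, described below, 65.6% held CCAAT, 71.9% the GC box and 12.5% the looser sterol letters. These matches describe letters in a window and are not shown to be bound.

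The stretches below show where these letters lie in 5 enzyme genes that differ in how much they rose and in Srebf2 and Insig1, the regulators with the largest increase. They end before the gene's start and leave out annotated exons. Capitals mark the CCAAT box as read on either strand and the looser sterol element, extended to the strict one in Hmgcs1.
Hmgcs1 (chr13:119690161-119690350, plus strand): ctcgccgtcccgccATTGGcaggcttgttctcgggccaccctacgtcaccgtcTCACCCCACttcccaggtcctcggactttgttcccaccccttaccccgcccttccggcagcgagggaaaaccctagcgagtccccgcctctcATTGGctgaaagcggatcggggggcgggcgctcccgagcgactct
Mvk (chr5:114444089-114444268, plus strand): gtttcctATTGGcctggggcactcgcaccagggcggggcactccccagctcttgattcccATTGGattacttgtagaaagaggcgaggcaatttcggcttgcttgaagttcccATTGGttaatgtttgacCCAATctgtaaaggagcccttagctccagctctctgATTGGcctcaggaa
Cyp51 (chr5:4104747-4104847, minus strand): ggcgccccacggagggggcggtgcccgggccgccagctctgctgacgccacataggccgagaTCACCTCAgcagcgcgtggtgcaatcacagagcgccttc
Hsd17b7 (chr1:169969242-169969385, minus strand): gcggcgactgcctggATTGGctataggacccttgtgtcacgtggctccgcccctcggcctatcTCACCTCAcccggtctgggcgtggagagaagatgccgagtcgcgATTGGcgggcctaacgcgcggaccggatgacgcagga
Sc5d (chr9:42264301-42264410, minus strand): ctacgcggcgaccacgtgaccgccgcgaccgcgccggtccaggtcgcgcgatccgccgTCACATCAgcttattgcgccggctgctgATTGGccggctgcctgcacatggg
Srebf2 (chr15:82147069-82147180, plus strand): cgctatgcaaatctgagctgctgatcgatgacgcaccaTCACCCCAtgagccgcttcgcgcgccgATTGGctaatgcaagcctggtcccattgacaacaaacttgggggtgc
Insig1 (chr5:28071162-28071362, plus strand): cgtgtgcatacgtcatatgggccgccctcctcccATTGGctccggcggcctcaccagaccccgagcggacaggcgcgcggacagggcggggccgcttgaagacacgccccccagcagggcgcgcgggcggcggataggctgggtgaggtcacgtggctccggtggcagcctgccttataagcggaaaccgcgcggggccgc

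The stretches of Hmgcs1, Hsd17b7, Sc5d and Srebf2 held both kinds of letters. That of Mvk held 5 CCAAT boxes and no match to the sterol letters. Of the other enzyme genes, Msmo1, Nsdhl, Dhcr7 and Pmvk held the looser letters (1.85-fold, 1.85-fold, 1.62-fold and 1.25-fold higher). Acat2, Idi1, Mvd, Lss, Tm7sf2 and Ebp had windows without them (1.66-fold, 1.65-fold, 1.63-fold, 1.57-fold, 1.33-fold and 1.13-fold, Tm7sf2 and Ebp not called). A relation between the letters and the size of the difference was not tested. The Cyp51 stretch shown held the looser sterol element and no CCAAT, but a CCAAT lay 29 bases before the gene's start, outside that stretch. Acat2 was the enzyme gene whose window held no CCAAT. Insig1, with the largest increase, held 1 CCAAT and no match to the sterol letters in the stretch shown. Other forms of the sterol element were not searched, so a missing match does not show that an element is absent.

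Of the regulators, Insig1 stood out from Insig2. Insig1 encodes the feedback inhibitor that is itself a sterol-repressed SREBP target, and stood at 199, 85.0, 136, 77.5 and 169.5 CPM in WT tumors 2 to 6 and 235, 339, 446, 306 and 311 CPM in D69A tumors 1 to 5. All D69A tumors lay above all WT tumors, and the log2 fold change of 1.29 (SE 0.27, edgeR adjusted p = 0.00299) was the largest of the 31 members. Its mean level per transcript length was below that of Sqle in WT tumors (43.1 CPM per kb) and slightly above it in D69A tumors (106 CPM per kb). Insig2, which encodes a related protein that acts in the same way and is not driven by SREBP, stood at 69.7, 89, 88.8, 107 and 80.5 CPM in WT tumors 2 to 6 and 71.8, 87.9, 103, 86.1 and 85.0 CPM in D69A tumors 1 to 5. The groups overlapped fully, with an interval of 95% for the log2 fold change of -0.28 to 0.27. Within the WT group the genes ran in opposite order, since WT tumor 5 was lowest for Insig1 and highest for Insig2 and WT tumor 2 the reverse. Scaled to pigment cell markers, Insig1 was still higher (log2 fold change 0.83) and Insig2 was lower (-0.50). The median of all genes was -0.47 with that scaling, and Insig2 lay close to it.

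Both genes of the factors themselves were higher, Srebf1 not past the threshold when scaled to pigment cell markers. Srebf2, which encodes SREBP-2, stood at 226, 146, 172, 149 and 189 CPM in WT tumors 2 to 6 and 238, 314, 351, 306 and 305 CPM in D69A tumors 1 to 5. Every D69A tumor lay above every WT tumor (log2 change 0.78 with SE 0.13), and the gene was also higher with scaling to pigment cell markers (0.31). Srebf1, which encodes both SREBP-1 forms from separate starts that gene counts do not tell apart, stood at 96.5, 94.7, 91.6, 98.3 and 102 CPM in WT tumors 2 to 6 and 119.8, 143, 144, 143 and 138 CPM in D69A tumors 1 to 5. It varied little within WT tumors, 1.12-fold from lowest to highest against 1.55-fold for Srebf2, and did not share the WT order of the enzymes. Its groups did not overlap (log2 change 0.51 with SE 0.06), but with scaling to pigment cell markers the log2 fold change was 0.028 and the call was lost. Scap, the escort gene, was 1.22-fold higher with overlap (edgeR adjusted p = 0.0383). The call for Scap was lost without WT tumor 3 (edgeR adjusted p = 0.0764) or D69A tumor 2, 4 or 5 (0.0768, 0.0715 and 0.0647), and scaling to pigment cell markers turned it to -0.17. Of the exon sequence of Scap 13.2% lies opposite the annotated 5830462I19Rik.

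**Figure D4:**
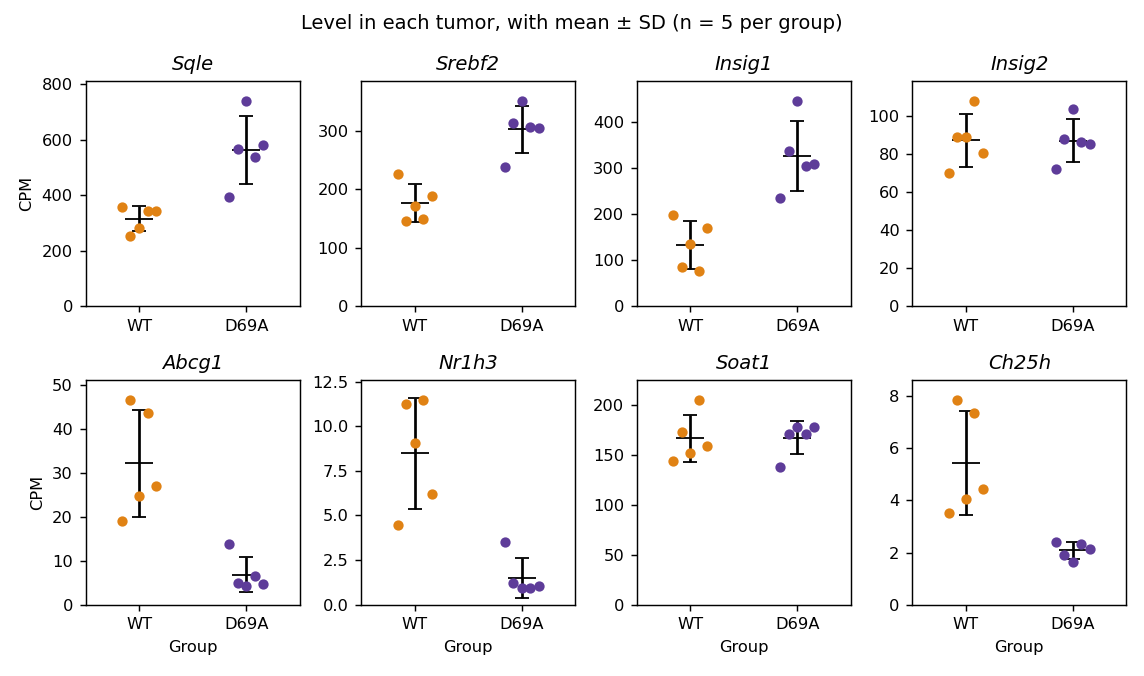
Points are CPM of single tumors, with the mean and SD of each group (n = 5), on linear axes from 0. Insig1, Srebf2 and Sqle lie higher in all D69A than in all WT tumors, Abcg1, Nr1h3 and Ch25h lower, and Insig2 and Soat1 overlap.

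Abcg1 and Nr1h3 had the largest decreases of the members. Both also fell with scaling to pigment cell markers, but that scaling moved the median of all genes to -0.47, so this adds no support. Abcg1, which encodes an exporter of sterol to high-density lipoprotein and is abundant in macrophages, stood at 19.1, 46.6, 24.7, 43.7 and 27.0 CPM in WT tumors 2 to 6 and 13.9, 4.93, 4.36, 6.45 and 4.72 CPM in D69A tumors 1 to 5. Nr1h3, the gene of LXR-alpha, which is found mostly in macrophages, liver and fat, stood at 4.44, 11.3, 9.06, 11.5 and 6.20 CPM in WT tumors 2 to 6 and 3.50, 1.23, 0.931, 0.917 and 1.03 CPM in D69A tumors 1 to 5. For both genes all D69A tumors lay below all WT tumors (4.69-fold and 5.55-fold lower), and D69A tumor 1 stood above the rest of its group. Over all genes tested 17.4% had every D69A tumor below every WT tumor, and among the members 3 did. WT tumors 3 and 5 were highest and WT tumor 2 lowest for both, as for the macrophage markers (mean log2(CPM + 0.5) of 6.74 and 6.87 in WT tumors 3 and 5, 5.52 in WT tumor 2, 5.33 in D69A tumor 1 and 4.44 to 4.69 in the other D69A tumors). The median log2 fold change of the 12 macrophage markers was -1.66, against -2.23 for Abcg1 and -2.47 for Nr1h3. This was not particular to macrophage markers. Medians were -2.17 for leukocyte, -2.24 for fibroblast, -2.21 for adipocyte, -0.85 for endothelial and -2.40 for interferon response markers. Leukocyte and fibroblast marker means were also highest in WT tumors 3 and 5 and lowest in WT tumor 2 within the WT group. The part of macrophage or other cell content in these values was not tested.

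Abca1, the exporter gene that loads apolipoprotein with sterol and is made by many cell types, fell by less. Abca1 stood at 35.8, 82.5, 49.9, 81.8 and 57.3 CPM in WT tumors 2 to 6 and 38.4, 39.5, 42.2, 42.1 and 39.0 CPM in D69A tumors 1 to 5. WT tumor 2 lay below every D69A tumor, and the D69A tumors differed little among themselves (log2 change -0.61 with SE 0.20, edgeR adjusted p = 0.027). The call was lost without WT tumor 3 or 5 (edgeR adjusted p = 0.0746 and 0.0666) or D69A tumor 1, 2, 4 or 5 (0.0508, 0.0559, 0.0514 and 0.0571), with the 3 muscle-rich tumors omitted (0.125) and with limma-voom (0.0529).

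Of the remaining genes of this class Stard4, which encodes a soluble sterol carrier and is an SREBP target, rose, with 72.4 ± 15.7 CPM over the WT tumors against 113 ± 14.2 CPM over the D69A tumors (SD, n = 5 per group) and a log2 change 0.65 with SE 0.14, but was not called when scaled to pigment cell markers (0.18). Nr1h2, the gene of the broadly expressed LXR-beta, had 91.0 ± 13.5 CPM over the WT tumors against 79.5 ± 7.42 CPM over the D69A tumors (SD, n = 5 per group), with an interval of 95% for the log2 fold change of -0.43 to 0.042. Mylip, whose product marks lipoprotein receptors for degradation and so limits uptake, had 27.2 ± 5.86 CPM over the WT tumors against 22 ± 2.58 CPM over the D69A tumors (SD, n = 5 per group) and an interval of -0.64 to 0.031. It passed the threshold without WT tumor 2 (edgeR adjusted p = 0.0318). Soat1, the gene of the main esterifying enzyme outside liver and gut, stood at 144, 173, 151, 205 and 159 CPM in WT tumors 2 to 6 and 138, 171, 177, 171 and 178 CPM in D69A tumors 1 to 5, with an interval of -0.23 to 0.24. Scaled to pigment cell markers, Nr1h2, Mylip and Soat1 were lower (log2 fold changes -0.68, -0.81 and -0.49). The median of all genes was -0.47 with that scaling, and Soat1 lay close to it.

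Ch25h was low in all tumors and lower in D69A tumors. Its product makes 25-hydroxycholesterol, an oxysterol that holds SREBPs in the endoplasmic reticulum, and the gene is induced by interferon in macrophages and dendritic cells. Ch25h (chromosome 19, 34473778 to 34475164 in mm10) stood at 3.51, 7.84, 4.04, 7.34 and 4.44 CPM in WT tumors 2 to 6 and 2.41, 1.89, 1.62, 2.34 and 2.14 CPM in D69A tumors 1 to 5. These values rest on 54 to 287 counts per tumor, and no D69A tumor reached the lowest WT tumor (log2 change -1.38 with SE 0.25, edgeR adjusted p = 0.0017). WT tumors 3 and 5, the lowest of the WT tumors for most synthesis enzymes, were the highest for Ch25h. All 12 interferon response markers were lower in D69A tumors, against 24.7% of all genes tested. Their summed levels were 1686 to 3319 CPM in WT and 397 to 882 CPM in D69A tumors. The part of that response in the level of Ch25h was not tested. Of the exon sequence of Ch25h 11.5% lies opposite the annotated Gm26902.

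Other genes of sterol biology, from a list that is separate from the members, did not move one way. Of 44 tested 13 were higher (29.5%) and 12 lower (27.3%), against the 18.8% and 24.7% of all genes, and their median log2 fold change was 0.021. With scaling to pigment cell markers none was higher and 35 were lower, against 151 higher and 10690 lower of the 13798 genes tested. The 8 with the smallest p among those that rose are described next. With scaling to pigment cell markers Mbtps1, Scarb1, Mbtps2, Ggps1, Erlin2 and Por had negative values, and Mbtps1, Ggps1, Erlin2 and Por were called lower. Acat1 and Lpcat3 kept positive log2 fold changes (0.027 and 0.12) with that scaling but lost the call. Mbtps1 and Mbtps2, which encode the proteases that release SREBPs in the Golgi, were 1.24-fold and 1.30-fold higher, although 28.4% of the exon sequence of Mbtps2 is shared with Yy2. Acat1, the mitochondrial thiolase gene, was 1.42-fold higher, Ggps1, which draws on the same isoprenoid units, 1.17-fold, and Por, the reductase that supplies electrons to P450 enzymes, 1.18-fold. Scarb1, which encodes a receptor for high-density lipoprotein, was 1.37-fold higher and Erlin2, of an endoplasmic reticulum degradation complex, 1.22-fold. Lpcat3, a phospholipid remodelling gene known as an LXR target, was 1.51-fold higher with TMM scaling and thus opposite to Abca1 and Abcg1. Its groups overlapped, with WT tumor 2 at 136.7 CPM and D69A tumor 1 at 136.2 CPM.

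The 8 with the smallest p among those that fell are described next. They were also lower with scaling to pigment cell markers, but that scaling moved the median of all genes to -0.47, so this adds no support. Gpr183, which encodes the receptor for an oxysterol made from 25-hydroxycholesterol, stood at 3.82, 5.49, 4.28, 7.04 and 3.17 CPM in WT tumors 2 to 6 and 1.84, 1.73, 1.38, 1.24 and 1.49 CPM in D69A tumors 1 to 5. As for Ch25h, the groups did not overlap (log2 change -1.63 with SE 0.23). Cyp27a1, the gene of sterol 27-hydroxylase, was 9.19-fold lower, with 9.82 ± 5.78 CPM over the WT tumors against 1.06 ± 1.01 CPM over the D69A tumors (SD, n = 5 per group). The lipid transfer gene Pltp, also an LXR target, was 3.15-fold lower, although exons of Ctsa lie opposite 19.3% of its exon length, and the lipid droplet gene Plin2 1.45-fold. Gramd1b and Gramd1a, of the family that carries sterol from the plasma membrane, were 1.82-fold and 1.25-fold lower. Apol6, an apolipoprotein L gene, was 5.94-fold lower. Hsd3b7, of oxysterol and bile acid metabolism, was 1.55-fold lower, but 62% of its exon sequence is shared with Gm49388 and 62.4% lies opposite 9430064I24Rik. Gramd1a lost its call with the 3 muscle-rich tumors omitted (edgeR adjusted p = 0.0579).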

How the data were processed

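The values deposited by the authors were whole-number counts for each Ensembl gene, unscaled. Per the submitters' processing notes fastp, HISAT, Bowtie and RSEM were used with mm10. What each did, which annotation was counted and whether strand was used is not given in the sources used here. Each column was assigned by its name to 1 of 10 tumors, 5 per group. No pair of tumors in a group agreed within sampling noise (smallest chi-square per degree of freedom 13.9). The count floor covers counting error alone.

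Genes were filtered with filterByExpr, scaled by TMM and compared with the quasi-likelihood test of edgeR 4.0.16 in R 4.3.3 (limma 3.58.1 and DESeq2 1.42.0 for alternatives). P-values of all 13798 genes were adjusted by Benjamini-Hochberg and called under 0.05. SEs came from the F statistic and intervals of 95% from the SE with 8 residual degrees of freedom. Members, lists and alternatives were chosen with earlier results of these data known. The text names all 31 members and, of the other pathway genes that were called and averaged 1 CPM or more, up to 8 per direction by smallest p. Of 46 pathway symbols fixed, 1 was an older name of another on the list and 1 was too low to be tested. Symbols, coordinates and exon overlaps came from GENCODE release M21 (mm10). Simulated counts for 13798 genes were used to check the fit. It recovered 5.77% of 52 genes changed 1.25-fold, 51% of 51 genes changed 1.5-fold and 70.2% of 47 genes changed 2-fold. Of the calls in the simulation 5.22% were on unchanged genes. Far fewer genes were changed there than the 43.5% called in the tumors, so these shares are not the recovery of the tumor comparison. The alternatives were DESeq2, limma-voom, RLE, upper quartile and library size scaling, scaling to 15 pigment cell markers, other filters, a threshold of 0.01, the label number as a block, and leaving out tumors.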

Additional observations from a re-analysis of the deposited data

Results flagged for a closer look

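A tumor is listed here when the distance to its closest neighbour exceeded 0.71 of the range of the 5 tumors in the group, which chance gives in about 1 of 20 groups of independent, normally distributed values. Of 94 groups of values examined 8 met this, all in D69A tumors and 7 of them through D69A tumor 1. D69A tumor 1 was highest in its group for Abcg1 (13.9 CPM, the next 6.45), Nr1h3 (3.5 CPM, the next 1.23), Pltp (64.7 CPM, the next 38.2) and Cyp27a1 (2.83 CPM, the next 0.863). It was lowest for Srebf1 (119.8 CPM, the next 138), Soat1 (138.1 CPM, the next 171) and Lpcat3 (136.2 CPM, the next 178). Mvk was lowest in D69A tumor 2 (24.5 CPM, the next 26.9). Values of 1 tumor vary together, so these are not independent of each other.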

How the results depend on the processing

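The counts of members, of 21 higher and 4 lower, ranged over 15 to 22 and 3 to 5 when each tumor was left out in turn, those of other pathway genes over 11 to 14 and 11 to 14, and those of all genes over 2095 to 2936 and 2826 to 3631. Scaling to pigment cell markers gave 151 higher and 10690 lower of all genes, 7 and 9 of the members and 0 and 35 of the other pathway genes. A threshold of 0.01 gave 1334 higher of all genes, 11 of the members and 8 of the other pathway genes. When the 3 muscle-rich tumors were omitted, 1727 genes and 12 members were higher. With the pigment cell scaling the log2 fold change turned negative for Mvk (-0.088), Pmvk (-0.14), Tm7sf2 (-0.059), Ebp (-0.28), Scap (-0.17), Soat1 (-0.49), Mbtps1 (-0.16), Scarb1 (-0.027), Mbtps2 (-0.084), Ggps1 (-0.25), Erlin2 (-0.20) and Por (-0.24), a shift that follows from its construction. Soat1 and Insig2, both near 0, changed sign: Soat1 with upper quartile factors (-0.026), library size only (-0.038) and a mean of at least 1 CPM (-0.0059), Insig2 without a low count filter (0.0012) and without the muscle-rich tumors (0.079), and with 1 tumor left out they ranged from -0.040 to 0.13 and from -0.072 to 0.12. Tumors with the same label number did not all deviate together (correlations of 0.177, -0.417, 0.203 and 0.167 for numbers 2 to 5). Not every tumor was best matched by its own number. The labels do not say what tumors of equal number share, and so few correlations cannot settle it. With the number as a block 19 members were higher and 3 lower, 2246 and 3218 of all genes and 12 and 14 of the other pathway genes, Mvk, Pmvk and Abca1 were not called (edgeR adjusted p = 0.0825, 0.159 and 0.0903), and Insig2 came to 0.042. Depth limits low genes such as Ch25h, with 54 to 287 counts per tumor.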
